A study of Mus musculus with 6 samples.

Results

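The 9 genes described here encode small membrane proteins of 2 related groups: 7 Ms4a genes (Ms4a4a, Ms4a4b, Ms4a4c, Ms4a6b, Ms4a6c, Ms4a6d and Ms4a7) and the pair Tmem176a and Tmem176b. They were picked by name out of 34745 genes in one deposited table, and the difference between genotypes in these same libraries was known when they were picked. The fold changes of the 9 genes are therefore a description and carry no p-value. All 9 were among the 12546 genes with enough counts to be tested. Only 1 of them, Tmem176b, passed the fit over all genes at an adjusted p below 0.05 (edgeR's quasi-likelihood test with Benjamini-Hochberg adjustment), where 0.478% of all tested genes passed with a lower level in Lgmn KO, 0.311% with a higher level and 0.789% in either direction. Nothing is read from its count, because the same comparison chose the genes.

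Messenger RNA was profiled from cardiac macrophages of Lgmn KO mice (replicates 1, 2 and 4) and of WT mice (replicates 1, 2 and 3), all labelled C57BL/6, 8 weeks old. Lgmn encodes legumain, an asparaginyl endopeptidase of lysosomes. The design places all mice after myocardial infarction, whereas the protocol names both ligation of the left anterior descending artery and a sham operation without saying which hearts had which. For sorting, live cells were labelled with antibodies against CD11b, CD64 and CD45. The sources used here do not say how the Lgmn deletion was made, whether it was limited to some cell types, or whether each library is 1 animal or a pool, so the spread between libraries may be partly technical. Depth was 19546253 to 21462640 counts in Lgmn KO and 20158494 to 24086976 counts in WT, at which 3 counts equal 0.125 to 0.153 CPM (counts brought to a common library total by TMM scaling, the unit of every level below unless FPKM is named). Lgmn itself had 78.7, 88.5 and 83.5 CPM in Lgmn KO, against 2205, 2692 and 2277 CPM in WT.

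MS4A proteins cross the membrane several times and sit at the cell surface or in endosomes, where they join larger receptor complexes. The best known are CD20 (Ms4a1) of B cells and the beta chain of the high-affinity IgE receptor (Ms4a2) of mast cells. Others mark macrophages: human MS4A4A is found on tissue macrophages and associates with the beta-glucan receptor dectin-1, and Ms4a7 is a marker of macrophages in mouse tissues. Tmem176a and Tmem176b are proteins of similar build in endosomal membranes of myeloid cells, and Tmem176b is a cation channel known to restrain the NLRP3 inflammasome.

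The 7 Ms4a genes lie within 284 kb at chr19:11321039-11604849 (GRCm38), and the Tmem176 genes within 13.3 kb at chr6:48833818-48847071. All 9 are annotated as protein coding. Some are close copies of each other, which bears on how reads were assigned. The coding sequences of Ms4a4b and Ms4a4c were 91.7% identical, those of Ms4a6b and Ms4a6c 85.8%, those of Ms4a6b and Ms4a6d 81.2%, and those of Ms4a6c and Ms4a6d 77.4%. Of all 50-base stretches in the transcripts of Ms4a4c, 7.73% also occurred in Ms4a4b. The share was 5.85% for Ms4a6c against Ms4a6b, 2.31% for Ms4a6d against Ms4a6b and 0 for Ms4a6c against Ms4a6d. The sources used here do not say how reads that match several genes were treated, so the values of Ms4a4b and Ms4a4c, and of Ms4a6b and Ms4a6c, are uncertain to that extent. Exons of Tmem176a and Tmem176b overlap on opposite strands, and whether counting used strand is not given, so reads from the overlap cannot be told apart. Exons of Ms4a4c, Ms4a6b and Ms4a6c also overlap those of other annotated genes.

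The likeness of the copies extends upstream of their genes. The stretches shown are from the RefSeq promoter windows (GRCm38.p6), all on the plus strand, cut where the first annotated exon begins, and they are shown because these pairs are the closest copies among the 9 genes. Capitals mark runs of at least 12 bases that both sequences of a pair hold: 92 bases of Ms4a4b and Ms4a4c, and 36 bases of Ms4a6b and Ms4a6c. The cut ends the last run of Ms4a6b. Past the cut its window goes on with the same letters as Ms4a6c, so 36 understates the likeness of this pair. The positions are chr19:11443308-11443552 for Ms4a4b, chr19:11407411-11407660 for Ms4a4c, chr19:11518309-11518452 for Ms4a6b and chr19:11469118-11469365 for Ms4a6c. The windows of Ms4a4c and Ms4a6b lie inside the bounds that the table gives for those genes, which also hold longer transcripts.
Ms4a4b: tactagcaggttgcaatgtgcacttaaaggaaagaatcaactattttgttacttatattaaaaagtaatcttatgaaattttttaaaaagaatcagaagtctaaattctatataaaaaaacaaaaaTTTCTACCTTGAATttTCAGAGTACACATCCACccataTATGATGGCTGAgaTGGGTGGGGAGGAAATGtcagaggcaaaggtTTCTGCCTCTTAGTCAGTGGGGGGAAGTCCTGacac
Ms4a4c: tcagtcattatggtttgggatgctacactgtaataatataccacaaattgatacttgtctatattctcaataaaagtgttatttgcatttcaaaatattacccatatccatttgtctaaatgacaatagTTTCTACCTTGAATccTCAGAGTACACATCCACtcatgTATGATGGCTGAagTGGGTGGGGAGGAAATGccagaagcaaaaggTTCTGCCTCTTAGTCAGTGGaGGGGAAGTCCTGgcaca
Ms4a6b: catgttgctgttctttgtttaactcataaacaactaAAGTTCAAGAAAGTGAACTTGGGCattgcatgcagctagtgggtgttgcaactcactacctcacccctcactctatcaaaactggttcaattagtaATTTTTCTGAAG
Ms4a6c: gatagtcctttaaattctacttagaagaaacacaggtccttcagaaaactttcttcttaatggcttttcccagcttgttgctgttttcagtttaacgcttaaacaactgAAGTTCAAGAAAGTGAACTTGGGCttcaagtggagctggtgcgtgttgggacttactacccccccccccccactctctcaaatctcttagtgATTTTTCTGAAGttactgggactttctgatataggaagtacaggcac

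Across all RefSeq promoter windows (300 bases, 32851 in mouse), 8 of the 9 genes had 12 windows. The PU.1 core GAGGAA, on either strand, was in 6 of these 12 windows, belonging to 5 genes (Ms4a4b, Ms4a4c, Ms4a7, Tmem176a and Tmem176b), against 28.3% of all windows. The windows of Tmem176a and Tmem176b overlap and share some of these matches. The interferon-stimulated response element (GAAA and GAAA with any 2 bases between them, in 3.44% of all windows) and the gamma-activated site TTCNNNGAA (8.30%) had no match in the 12 windows. The string TTGCNNCAA (2.08%), searched for C/EBP, had no match either. Its spacing is not that of the usual C/EBP site, so this says nothing on such sites. The string TGANTCA, searched for AP-1, matched 2 windows (7.81% of all windows), as TGATTCA in Ms4a7 and TGAATCA in Ms4a4b. It allows any middle base, which is looser than the usual AP-1 site, so these matches are not read as such sites. The TATA box string TATAAA matched 1 window, of Ms4a4b (13.6%), at -140 bases from the start. All motifs were searched on both strands. A match is a description of the letters only, and no match says only that those letters are not in these windows.

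All 9 genes had a lower mean level in Lgmn KO than in WT. Their fitted log2 fold changes (Lgmn KO over WT) ran from -3.26 to -0.50 with a median of -1.38, beside a median of 0.00 over all tested genes. A log2 fold change below -1 was seen for 6 of the 9 genes and 3.93% of all tested genes. In 7 of the 9 every Lgmn KO library was below every WT library, which held for 13% of all tested genes. Because cells were sequenced in bulk, fewer cells of a type and less RNA per cell cannot be told apart here. The summed level of the 9 genes was 362, 360.5 and 511 CPM in Lgmn KO, against 515, 910.1 and 682 CPM in WT. The highest Lgmn KO library was thus close to the lowest WT library.

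**Figure D1:**
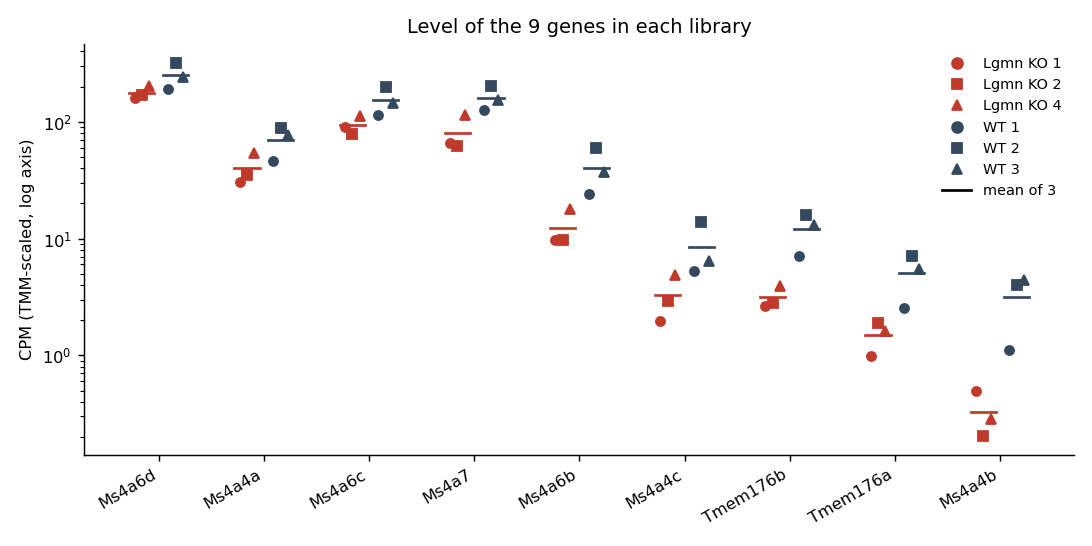
Level of each of the 9 genes in each library, in CPM on a log axis, with Lgmn KO libraries left of WT libraries; points are libraries and bars are group means (n = 3 each). The libraries of the 2 groups are apart in 7 genes and overlap in Ms4a6d and Ms4a4a.

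Ms4a6d, which has been linked to NLRP3 control in mouse macrophages through its partner VSIG4, had the most counts of the 9 genes. It had 160.3, 169 and 203 CPM in Lgmn KO, against 189.5, 320.1 and 241 CPM in WT. Lgmn KO replicate 4 was above WT replicate 1, so the groups overlapped. The means were 177 ± 22.8 CPM in Lgmn KO libraries and 250.2 ± 65.7 CPM in WT libraries (SD, n = 3 each), and the log2 fold change was -0.50 (SE 0.19). It was the smallest change of the 9, and it was -0.28 without WT replicate 2.

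Ms4a6c, a close relative of Ms4a6d, had 89.6, 78.4 and 111 CPM in Lgmn KO, against 113, 199.5 and 144 CPM in WT. The groups did not overlap, but the highest Lgmn KO and the lowest WT library were nearly level. The log2 fold change was -0.71 (SE 0.21) with all libraries and -0.47 without WT replicate 2. Ms4a6b, the third member of this trio, had 9.62, 9.66 and 17.8 CPM in Lgmn KO, against 24.1, 59.9 and 37.3 CPM in WT. Here the groups were apart, with Lgmn KO at 30.5% of the WT mean and a log2 fold change of -1.71 (SE 0.37).

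The 3 Ms4a6 genes thus differed in size of change: the mean in Lgmn KO was 70.9% of that in WT for Ms4a6d, 61.1% for Ms4a6c and 30.5% for Ms4a6b. Their place in the summed level shifted accordingly. Ms4a6d made up 44.3%, 46.8% and 39.8% of the summed CPM of the 9 genes in Lgmn KO, against 36.8%, 35.2% and 35.3% in WT, and these shares did not overlap. Ms4a6b made up 2.66%, 2.68% and 3.48% in Lgmn KO, against 4.68%, 6.58% and 5.47% in WT.

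Ms4a7, the macrophage marker, had 65.4, 61.4 and 114 CPM in Lgmn KO, against 126, 201 and 154 CPM in WT. The groups did not overlap. Its mean was 80.2 ± 29.1 CPM in Lgmn KO libraries and 161 ± 37.9 CPM in WT libraries (SD, n = 3 each), and the log2 fold change was -1.003 (SE 0.26). Ms4a4a, the mouse counterpart of the dectin-1 partner MS4A4A, had 30.7, 34.7 and 54.4 CPM in Lgmn KO, against 46.2, 88.4 and 76.3 CPM in WT. Lgmn KO replicate 4 was above WT replicate 1, as for Ms4a6d. The log2 fold change of Ms4a4a was -0.82 (SE 0.28).

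Ms4a4c had 1.97, 2.91 and 4.90 CPM in Lgmn KO, against 5.26, 13.8 and 6.46 CPM in WT. WT replicate 2 stood well above the other two WT libraries, and the groups were only just apart. The log2 fold change was -1.38 (SE 0.45) with all libraries and -0.84 without WT replicate 2. Ms4a4b, its closest copy, is known from T and NK cells, where it associates with the receptor GITR. It had 10, 4 and 6 counts in Lgmn KO, against 23, 86 and 106 counts in WT, which is 0.493, 0.204 and 0.283 CPM against 1.12, 3.98 and 4.42 CPM. The groups did not overlap, and its log2 fold change of -3.26 (SE 0.61) was the largest of the 9, on the fewest counts.

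Markers of T and NK cells had lower levels in Lgmn KO beside Ms4a4b. Of 34 such markers 10 had enough counts to be tested, the log2 fold change of each of the 10 was below 0 (median -2.56), and 4 passed the test (Il2rb, Tcf7, Trac and Bcl11b), while 9 had an unadjusted p below 0.05 and DESeq2 passed 7. Their summed level was 46.3, 43.5 and 60.0 CPM in Lgmn KO, against 68.4, 77.3 and 92.1 CPM in WT. Without Cd28, the most abundant of them, the sums were 2.91, 4.80 and 3.72 CPM in Lgmn KO and 13.7, 32.5 and 30.2 CPM in WT. Of the 34 markers, 10 were at 0 in every Lgmn KO library and 1, Ncr1, was at 0 in all 6 libraries. Cd3e, a subunit of the T cell receptor complex, had 0, 0 and 1 counts in Lgmn KO, against 3, 19 and 26 counts in WT. It had too few counts to be tested and was named after its values were seen. The part of these cells in the level of Ms4a4b was not tested. Over all 12546 tested genes, edgeR passed 0.789% and DESeq2 passed 804 genes.

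Tmem176b, the inflammasome-restraining channel, had 54, 55 and 83 counts in Lgmn KO, against 145, 344 and 314 counts in WT. In CPM this was 2.66, 2.81 and 3.91 in Lgmn KO and 7.06, 15.9 and 13.1 in WT, and the groups did not overlap. The log2 fold change was -1.94 (SE 0.32). Tmem176a, its neighbour and usual partner, had 20, 37 and 34 counts in Lgmn KO, against 52, 154 and 131 counts in WT, or 0.987, 1.89 and 1.60 CPM against 2.53, 7.13 and 5.46 CPM. Again every Lgmn KO library was below every WT library, with a log2 fold change of -1.75 (SE 0.42). The mean of Tmem176b in Lgmn KO was 26.0% of that in WT, and that of Tmem176a 29.6%.

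Which of the 9 genes passed the fit depended on the libraries and on the tool. Tmem176b no longer passed without any 1 of Lgmn KO replicate 1, 2 or 4 or WT replicate 2 or 3. No gene of the 9 passed then, and 6 to 35 of all genes did. Without WT replicate 1, 5 of the 9 passed, and 639 of all genes. DESeq2 passed 8 of the 9, all but Ms4a6d, and 804 of the 12546 tested genes. Nothing is read from these counts, because the same comparison chose the 9 genes. All 108 fold changes of the 9 genes under the alternatives tried were negative, which is no sign of stability, because the genes were picked for this difference.

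Most of the 9 genes shared an order of libraries within each group. Among the Lgmn KO libraries, replicate 4 was the highest in 7 of the 9 genes, which held for 32.3% of all tested genes, and replicate 1 was the lowest in 6 (35.0% of all tested genes). Among the WT libraries, replicate 1 was the lowest in 9 of the 9 genes (37.3% of all tested genes) and replicate 2 the highest in 8 (36.7%). The exception in WT was Ms4a4b, highest in WT replicate 3. In Lgmn KO, Ms4a4b was highest in replicate 1 and Tmem176a in replicate 2, while Ms4a4b, Ms4a6c and Ms4a7 were lowest in replicate 2. The spread was wide in WT: Ms4a6b, for example, averaged 12.4 ± 4.70 CPM in Lgmn KO libraries and 40.4 ± 18.1 CPM in WT libraries (SD, n = 3 each). Whether this order reflects the animals or the preparation of the libraries was not tested.

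**Figure D2:**
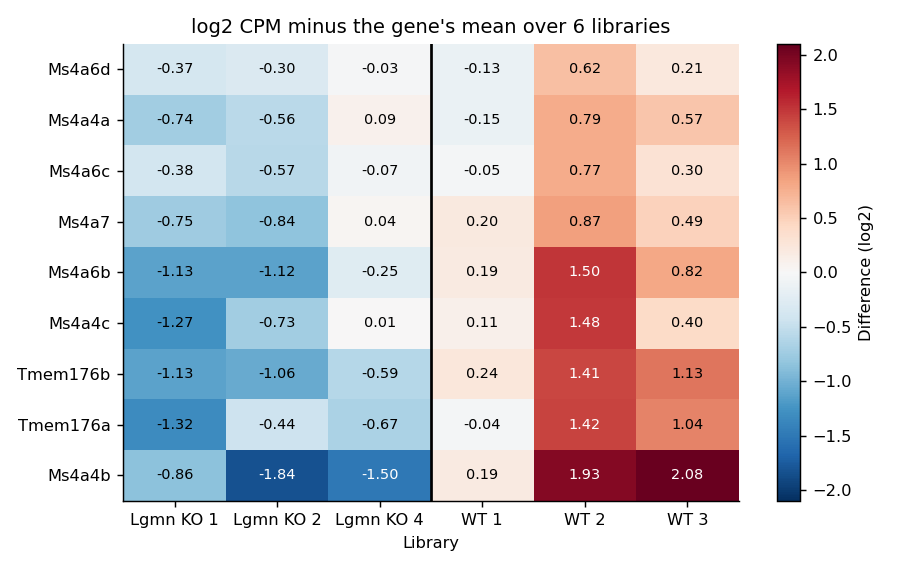
log2 CPM of each of the 9 genes minus its own mean over the 6 libraries, with the Lgmn KO libraries on the left and the WT libraries on the right of the black line; red is above and blue below the mean. Lgmn KO replicates 1 and 2 are below the mean in all 9 genes, Lgmn KO replicate 4 and WT replicate 1 lie near it in most, and WT replicates 2 and 3 are above it in all 9.

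Measured as the root mean square difference of these centred log2 CPM values over the 6 libraries, the most alike pairs among the 9 were Ms4a6c and Ms4a6d (0.138), Ms4a4a and Ms4a7 (0.189), Ms4a6b and Tmem176b (0.195), and Ms4a4a and Ms4a6c (0.199). The neighbours Tmem176a and Tmem176b differed by 0.290. Ms4a4b lay at 0.671 (Tmem176b) to 1.29 (Ms4a6d) from the others. Among 9131 other tested genes of at least 5 CPM, the profile nearest to Ms4a6d was that of Adgre1 (0.0269), which encodes the macrophage surface protein F4/80. After it came Asb13 (0.0555) and Sp140 (0.0564). Nearest to Ms4a6c were Lair1 (0.0627), an inhibitory collagen receptor, then Fyb (0.0907) and Dck (0.0908). Nearest to Ms4a7 were Zfp263 (0.116), Lgals3bp (0.123) and Pld4 (0.145). Tmem176b was nearest to the complement genes C1qb (0.133) and C1qc (0.181), then to Zbp1 (0.214), a sensor of nucleic acids induced by interferon. Tmem176a was nearest to Zfp36l1 (0.164), Cd72 (0.164) and Socs3 (0.187). These are descriptions over 6 libraries of both genotypes. The values were centred over both groups, so a near profile also has a like difference between genotypes, by which the 9 genes were picked. The log2 fold change was -0.50 for Ms4a6d and -0.51 for Adgre1, and -1.94 for Tmem176b and -2.03 for C1qb. Nothing further is read from which genes were nearest.

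Levels can be compared between genes only per length, for which the deposited FPKM (a value corrected for gene length as well as depth) was used. In Lgmn KO the order of mean FPKM was Ms4a6d (75.9 ± 9.35), Ms4a4a (47.4 ± 14.8), Ms4a6c (39.9 ± 6.86), Ms4a7 (14.3 ± 5.11), Ms4a6b (1.49 ± 0.558), Ms4a4c (1.40 ± 0.636), Tmem176b (0.626 ± 0.133), Tmem176a (0.257 ± 0.0802) and Ms4a4b (0.0475 ± 0.0217 FPKM, SD, n = 3). Neighbours in this order whose libraries overlapped were Ms4a4a with Ms4a6c, and Ms4a6b with Ms4a4c. In WT the order was the same, with Ms4a6d at 108.0 ± 27.5, Ms4a4a at 84.3 ± 25.2, Ms4a6c at 65.8 ± 18.4, Ms4a7 at 29.0 ± 6.59, Ms4a6b at 4.93 ± 2.17, Ms4a4c at 3.69 ± 1.98, Tmem176b at 2.42 ± 0.892, Tmem176a at 0.873 ± 0.397 and Ms4a4b at 0.463 ± 0.259 FPKM (SD, n = 3). Overlapping neighbours in WT were Ms4a6d with Ms4a4a, Ms4a4a with Ms4a6c, Ms4a6b with Ms4a4c, Ms4a4c with Tmem176b, and Tmem176a with Ms4a4b. Per kb of annotated exons, a choice made after seeing the data, the order differed only in WT, where Tmem176b (5.07 ± 1.91 CPM per kb) stood above Ms4a4c (4.86 ± 2.64 CPM per kb; SD, n = 3), well within their spread.

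The abundant genes of the group had the smaller fold changes. The 4 genes of 29.0 to 108.0 FPKM in WT had log2 fold changes of -1.003 to -0.50, and the 5 genes of 0.463 to 4.93 FPKM had -3.26 to -1.38. Among all tested genes in those ranges of WT level the median log2 fold change was 0.01 in the upper range (1028 genes) and 0.00 in the lower one (5182 genes). A log2 fold change below -1 was found for 2.04% of all genes in the upper and 3.82% in the lower range.

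**Figure D3:**
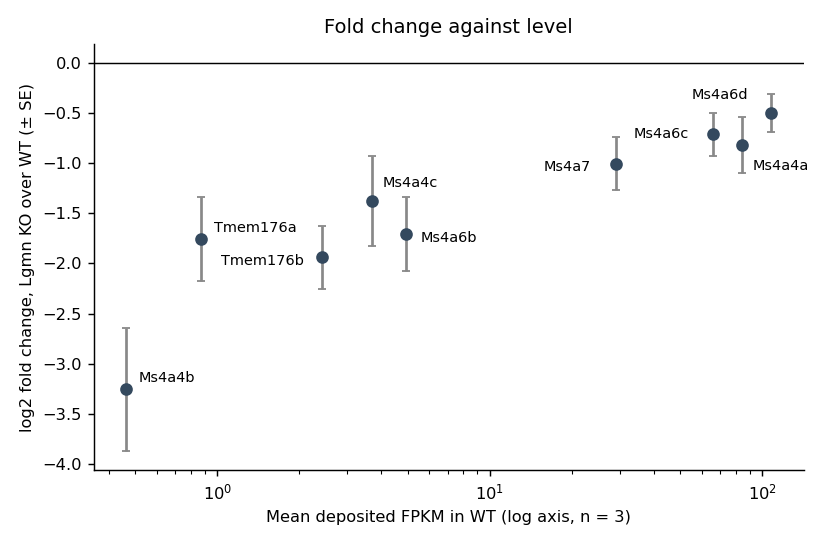
Fitted log2 fold change (Lgmn KO over WT, bars ± SE) of the 9 genes against their mean deposited FPKM in WT on a log axis (n = 3). Ms4a6d, Ms4a6c, Ms4a4a and Ms4a7 lie at the upper right, between -1.003 and -0.50, and Ms4a4b lies lowest at the left.

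The remaining Ms4a genes were mostly at or near 0 counts in these cells. Of 12 further Ms4a genes in the table, 8 had 0 counts in all 6 libraries (Ms4a2, Ms4a3, Ms4a5, Ms4a10, Ms4a12, Ms4a13, Ms4a15 and Ms4a18), among them the mast cell gene Ms4a2 and the granulocyte-monocyte progenitor gene Ms4a3. Ms4a1, encoding CD20, had 6, 5 and 3 counts in Lgmn KO libraries, against 3, 10 and 28 counts in WT libraries, too few to be tested. Ms4a14 had 1.78, 1.84 and 3.87 CPM in Lgmn KO, against 2.58, 5.14 and 4.67 CPM in WT, with a log2 fold change of -0.72 (-1.19 without Lgmn KO replicate 4) and an adjusted p of 0.388 (edgeR). Ms4a8a had 4.79, 10.02 and 6.27 CPM in Lgmn KO, against 4.67, 15.7 and 7.30 CPM in WT, with a log2 fold change of -0.40 and an adjusted p of 0.718 (edgeR); without WT replicate 2 it was 0.22. Neither gene passed: edgeR and DESeq2 called 0 of the 2, and 0 had an unadjusted p below 0.05 by edgeR.

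Genes around the 2 loci were compared to see how far lower levels in Lgmn KO reached along the chromosome. Within 500 kb on either side, 29 other genes were tested, counting Ms4a8a and Ms4a14, and edgeR passed 0 of them. Of the 29, 22 had a log2 fold change below 0 (50.4% of all tested genes), 7 had an unadjusted p below 0.05 and DESeq2 passed 4. Beside the Ms4a genes, the median log2 fold change of 13 tested neighbours was -0.13. The most abundant of them were Slc15a3, a lysosomal transporter, at 754 ± 89.2 CPM in Lgmn KO libraries and 761 ± 113 CPM in WT libraries, and Stx3, a syntaxin of vesicle fusion, at 115 ± 1.68 CPM in Lgmn KO libraries and 111 ± 6.90 CPM in WT libraries (SD, n = 3 each). Their adjusted p values were 0.977 and 0.797 (edgeR), and neither passed.

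Beside the Tmem176 pair, 16 neighbours were tested, with a median log2 fold change of -0.29. Gpnmb, encoding a glycoprotein of lysosome-rich macrophages, had 30902 ± 458 CPM in Lgmn KO libraries and 27064 ± 3284 CPM in WT libraries (SD, n = 3 each; log2 fold change 0.19, edgeR adjusted p = 0.386). Tra2a, a splicing factor gene, had a log2 fold change of -0.02 and an adjusted p of 0.976 (edgeR). The neighbours that DESeq2 passed, named here after their values were seen, were AW112010 beside the Ms4a genes and Gimap3, Gimap4 and Gimap6 beside the Tmem176 pair, the last 3 from a family of lymphocyte GTPases. AW112010 had 1.97 ± 0.545 CPM in Lgmn KO libraries and 21.9 ± 18.3 CPM in WT libraries (SD, n = 3 each; log2 fold change -3.46, edgeR adjusted p = 0.0600). The Gimap genes had log2 fold changes of -3.10 (Gimap3), -2.76 (Gimap4) and -1.52 (Gimap6), with edgeR adjusted p of 0.0959, 0.106 and 0.102. They rest on few counts. Gimap3 had 8, 1 and 6 counts in Lgmn KO, against 18, 35 and 93 in WT. Gimap4 had 4, 3 and 9 against 17, 74 and 28, and Gimap6 had 15, 8 and 18 against 28, 49 and 51. Gm8369 beside the Ms4a genes and Rarres2 and Igf2bp3 beside the Tmem176 pair also had log2 fold changes below -1, which 3.93% of all tested genes had. None of these had more than 38 counts in any library. Of the 29 neighbours, 10 had every Lgmn KO library below every WT library, which held for 13% of all tested genes. In the other direction, Patl1 beside the Ms4a genes and Gpnmb beside the Tmem176 pair had every Lgmn KO library above every WT library. That held for 10.7% of all tested genes.

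**Figure D4:**
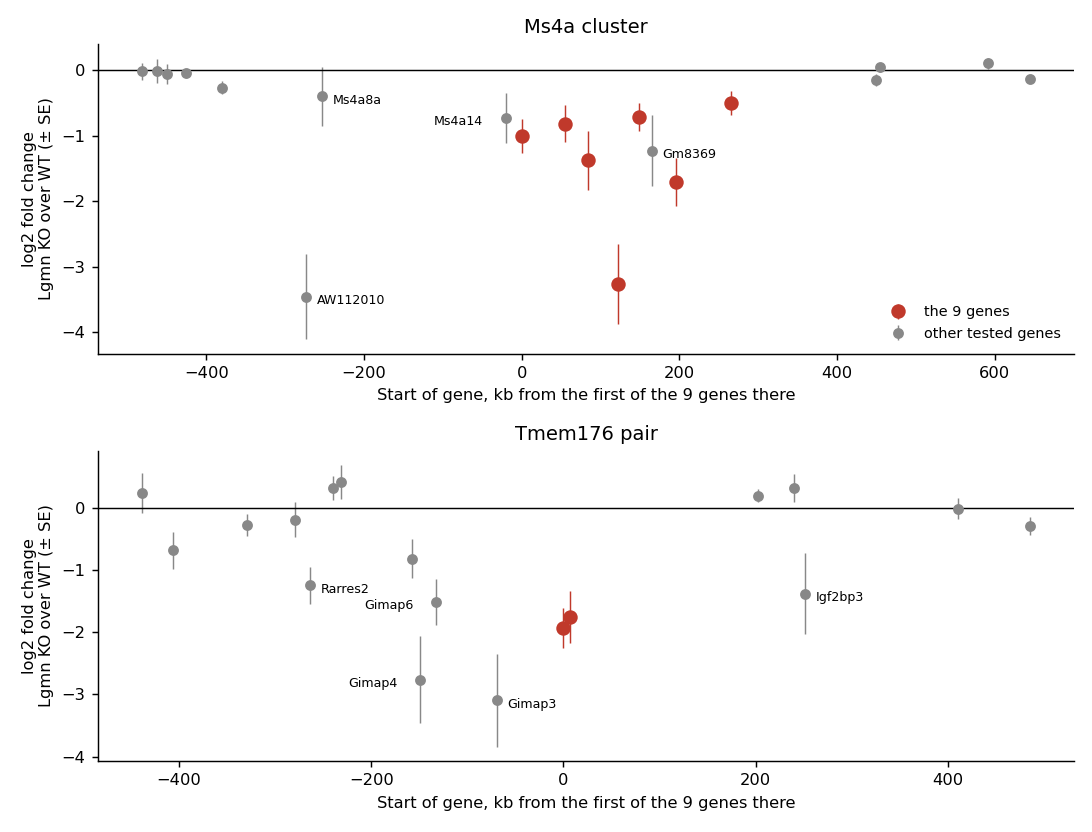
Fitted log2 fold change (Lgmn KO over WT, bars ± SE) of the 9 genes (red) and of the other tested genes within 500 kb (grey), by start position in kb from the first of the 9 genes at each locus. Most grey points lie near 0. Those below -1 are AW112010 and Gm8369 beside the Ms4a genes and Rarres2, Gimap3, Gimap4, Gimap6 and Igf2bp3 beside the Tmem176 pair.

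Partners and pathways named for these proteins were read from the same fit. For all lists, the background over all 12546 tested genes was 50.4% with a log2 fold change below 0, 0.789% passed by edgeR and 804 genes passed by DESeq2. The share of all tested genes with an unadjusted p below 0.05 is not given here, so those counts have no background beside them. Of 12 genes of the NLRP3 and related inflammasomes all were tested, 11 of them had a value below 0 (median log2 fold change -0.34), and 1 fell, Il1b, which encodes interleukin-1 beta. Il1b had 0.571 ± 0.132 CPM in Lgmn KO libraries and 4.14 ± 1.63 CPM in WT libraries (SD, n = 3 each; log2 fold change -2.84, edgeR adjusted p = 0.0277). Nlrp3, the sensor itself, had 5.53, 5.88 and 6.98 CPM in Lgmn KO, against 11.4, 20.0 and 13.7 CPM in WT. The groups were apart, with a log2 fold change of -1.29, but it did not pass (edgeR adjusted p = 0.0537). Of the 12, 4 had an unadjusted p below 0.05 and DESeq2 passed 2. Vsig4, the macrophage receptor named above as a partner of Ms4a6d, belongs to the resident macrophage markers and was named after its values were seen. It had 2.96, 5.06 and 4.71 CPM in Lgmn KO, against 1.41, 1.94 and 0.834 CPM in WT. Unlike the 9 genes, every Lgmn KO library was above every WT library, with a log2 fold change of 1.61 that did not pass (edgeR adjusted p = 0.0841).

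Of 11 dectin-1 signalling genes, 0 passed with edgeR, 5 had an unadjusted p below 0.05 and DESeq2 passed 1; their median log2 fold change was -0.10. Clec7a, which encodes dectin-1, had 363, 407 and 425 CPM in Lgmn KO, against 451, 869 and 679 CPM in WT. The groups were apart, with a log2 fold change of -0.74 and an adjusted p of 0.141 (edgeR). Of 10 genes of TREM2 and its partners, to which human MS4A variation has been linked, 0 passed with edgeR, 3 had an unadjusted p below 0.05 and DESeq2 passed 1, with a median of -0.09. Trem2 had 1086 ± 12.9 CPM in Lgmn KO libraries and 925 ± 44.2 CPM in WT libraries (SD, n = 3 each; log2 fold change 0.23, edgeR adjusted p = 0.135). Every Lgmn KO library was above every WT library for Trem2. Tetraspanins are membrane organisers of similar build but unrelated sequence. Of 17 tested, 0 passed with edgeR, 2 had an unadjusted p below 0.05 and DESeq2 passed 1, and their median was 0.03. The summed level of the list was 4583, 4350 and 4504 CPM in Lgmn KO, against 4084, 3852 and 4113 CPM in WT. These sums were apart, with Lgmn KO higher. Cd63, a tetraspanin of late endosomes, had a log2 fold change of 0.23 and an adjusted p of 0.222 (edgeR), with every Lgmn KO library above every WT library.

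Genes of antigen presentation and of the interferon response, which activated macrophages express, were read in the same way. Of 8 tested genes of MHC class II presentation, the log2 fold change was below 0 in all 8 (median -3.44) and 4 fell; all 8 had an unadjusted p below 0.05 and DESeq2 passed 7. Cd74, the invariant chain, had 102, 103 and 117 CPM in Lgmn KO, against 521, 1902 and 1119 CPM in WT (log2 fold change -3.46, edgeR adjusted p = 0.0263). WT replicate 1 was the lowest and WT replicate 2 the highest WT library, as in 8 of the 9 genes. Of 28 type I interferon response genes, 26 had a log2 fold change below 0 (median over the list -0.87) and 1 fell, Ly6e (log2 fold change -1.99, edgeR adjusted p = 0.0266). Of the 28, 20 had an unadjusted p below 0.05 and DESeq2 passed 12. The summed level of that list was 480.4, 569 and 656 CPM in Lgmn KO, against 817, 1692 and 1127 CPM in WT.

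The labelled cell type was checked with marker lists. Of 16 markers shared by all macrophages, all were tested, and their summed level was 36664, 32427 and 34291 CPM in Lgmn KO, against 37620, 41328 and 39291 CPM in WT. Lyz2, the most abundant, had a log2 fold change of -0.08 (edgeR adjusted p = 0.80), and 1 of the 16 fell, C1qa, a complement component (log2 fold change -2.37, edgeR adjusted p = 0.0486); the list's median was -0.47. Of the 16, 13 had a log2 fold change below 0, 12 had an unadjusted p below 0.05 and DESeq2 passed 6, and the summed levels of the groups were apart. Without Lyz2 the sums were 18659, 18175 and 20479 CPM in Lgmn KO, against 19975, 26874 and 22723 CPM in WT, and these overlapped. Of 14 tested markers of resident cardiac macrophages, 1 fell, Gas6, a ligand for clearance receptors (log2 fold change -0.75, edgeR adjusted p = 0.0297). In 10 of the 14 the log2 fold change was below 0 (median over the 14 -0.36), and Lyve1 was at 0 in all 6 libraries. An unadjusted p below 0.05 was found for 6 of the 14, in either direction, and DESeq2 passed 5. Among the 6, Vsig4 (log2 fold change 1.61) and Igf1 (0.50) were higher in Lgmn KO, with the groups apart. Gas6, Mrc1, Pf4 and Fcgrt were lower. Igf1, Mrc1, Pf4 and Fcgrt were named after their values were seen. The summed level of the list was 1087, 1198 and 1350 CPM in Lgmn KO, against 1037, 1603 and 1444 CPM in WT. These sums overlapped between the groups. Of 17 tested markers of monocytes and recruited macrophages, 15 had a log2 fold change below 0 (median over the list -0.88) and 3 fell: Itgal, Ly6i and Il1b. Of these 17, 11 had an unadjusted p below 0.05 and DESeq2 passed 7. Their summed level was 1171, 1334 and 1214 CPM in Lgmn KO, against 1512, 2210 and 1771 CPM in WT, and the groups were apart. The part of monocytes in the levels of the 9 genes was not tested.

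Markers of further cell types were low or mixed. Of 10 tested dendritic cell markers 1 fell, Zbtb46 (log2 fold change -2.15, edgeR adjusted p = 0.041), with a median of -0.67; the list summed to 25.8, 40.8 and 33.8 CPM in Lgmn KO, against 44.7, 73.8 and 55.1 CPM in WT, and Siglech was at 0 in all libraries. Of 6 tested endothelial markers 1 fell, Flt1 (log2 fold change -2.79, edgeR adjusted p = 0.015), with a median of -0.51, while Tek and Emcn were at 0 and the sum was 797, 920 and 881 CPM in Lgmn KO, against 691, 662 and 796 CPM in WT. That sum was mostly Fabp4, a fatty acid binding protein that macrophages also express; without it the sums were 179, 236 and 223 CPM in Lgmn KO and 209.9, 155 and 196 CPM in WT, which overlapped. Of the dendritic cell markers 6 had an unadjusted p below 0.05 and DESeq2 passed 2, and of the endothelial markers the counts were 4 and 2. Tested markers of B cells (5), neutrophils (7), mast cells (1), fibroblasts (7) and cardiomyocytes (4) had 0 genes that passed with edgeR, with medians of -0.24, -0.03, -0.42, -0.78 and -0.33. Among these, DESeq2 passed 1 neutrophil and 1 fibroblast marker, and 1 neutrophil and 4 fibroblast markers had an unadjusted p below 0.05. Vpreb3 of B cells and Mcpt4 and Fcer1a of mast cells were at 0 in all libraries. Over all 17 lists, 16 of 177 tested genes passed; this was 66 without WT replicate 1, 8 without WT replicate 2, 0 without Lgmn KO replicate 2, and 1 without Lgmn KO replicate 1 or 4 or WT replicate 3.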

How the data were processed

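Total RNA from sorted cardiac macrophages was sequenced in 6 libraries, placed in groups by titles and genotype labels. HISAT2, TopHat and TopHat2 2.0.9 are named in the submitters' processing notes with no role, together with hg38, a human build, yet the positions are those of mouse: 98.8% of the 34745 gene IDs are in GENCODE M21, and 80.8% of those have the same position there. Coordinates are the table's own, taken to be GRCm38. The sources used here name neither the counter nor its strand setting. Per the file headers, the deposited table holds a raw read count and an FPKM value for each gene in each library, the second scaled to length and depth.

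Genes were kept by filterByExpr, scaled by TMM and fitted with edgeR 4.0.16 (glmQLFit, glmQLFTest, in R 4.3.3) to compare Lgmn KO with WT, without covariates, and p-values were adjusted over all 12546 genes (threshold 0.05). Fold changes are fitted log2 values with standard errors. Profiles used log2 CPM with a prior count of 2. The fit was tested on simulated counts. Alternatives were DESeq2 1.42.0, limma-voom (limma 3.58.1), other scaling factors, no filter, a replicate block, an adjusted p of 0.1, log2(FPKM + 0.1) and leaving out each library. Named beside the 9 genes are related genes with at least 10 counts, abundant or passing neighbours, the nearest 3 profiles, and list genes of smallest p or highest level. Coding identity was computed with Biopython 1.88. The 9 genes and all lists were chosen with earlier results of these data known. The authors' own fold changes and p-values were not used.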

Additional observations from a re-analysis of the deposited data

How the results depend on the processing

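Counts limit the rare genes such as Ms4a4b. On simulated counts of 12571 genes for Lgmn KO against WT, edgeR recovered 87.8% of 98 genes changed 2-fold and 100% of 96 genes changed 4-fold, and called 6 unchanged genes. The simulation gave every gene the same spread between libraries (coefficient of variation 16.1% beyond counting) and was not split by count level. Among the 9 genes, the highest WT library was 1.59 (Ms4a7) to 3.95 (Ms4a4b) times the lowest. The recovery rates therefore cannot be carried over to the 9 genes. Over all genes, 99 passed by edgeR: 90 with median-of-ratios factors, 804 with DESeq2, 46 with limma-voom, 318 without a filter, 503 at an adjusted p of 0.1, and 6 to 639 when 1 library was left out. With the replicate number as a block, 39 of all genes passed and 6 of the list genes. Only numbers 1 and 2 are shared between the groups, and same-numbered libraries deviated together with correlations of 0.122 and 0.0757, so the numbers were not taken to pair the samples. List genes that passed numbered 16 by edgeR, 14 with median-of-ratios factors, 54 with DESeq2, 8 with limma-voom, 42 without a filter and 0 to 66 when 1 library was left out. Neighbours that passed numbered 0 by edgeR, 4 with DESeq2, 1 without a filter and 0 to 3 when 1 library was left out, the 3 being without WT replicate 1. For the 9 genes, the median log2 fold change was -1.38, -1.66 with the replicate block and -1.80 to -0.84 when 1 library was left out. Of the 9 genes, 1 passed by edgeR, 8 with DESeq2, 3 without a filter, 0 with median-of-ratios factors, limma-voom or the block, and 0 to 5 when 1 library was left out. All 108 alternative fold changes of the 9 genes were negative, and 107 moved by less than 1 SD. SD here is the gene's spread of log2 CPM between libraries of the same group. The exception was Ms4a4b on log2(FPKM + 0.1), at -1.81. Neither count is a sign of stability. The genes were picked for this difference, and leaving out 1 library can hardly move a group mean by that SD. The log2 fold change of Ms4a8a was -0.40, reversed to 0.22 without WT replicate 2, and ranged from -0.74 (without Lgmn KO replicate 2) to that value when 1 library was left out. The causes of these shifts were not tested.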
